A study of Rattus norvegicus with 8 samples.

Results

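The miR-181 family was examined in the striatum of rats that self-administered methamphetamine (METH) or saline. Members were a list of 7 mature miRNAs of the family, picked by name and not by their counts, of 752 mature miRNAs in the table. They were rno-miR-181a-5p, rno-miR-181b-5p, rno-miR-181c-5p, rno-miR-181d-5p, rno-miR-181a-1-3p, rno-miR-181a-2-3p and rno-miR-181c-3p. All 7 passed the filter on low counts, as did 507 of the 752 rows. A further 3 rows carry the family name but are not members. They are miR-181b-1-3p with 1 to 27 counts per library, miR-181d-3p with 0 to 4, and miR-181b-2-3p with 8 to 20.

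Small RNA was sequenced from the striatum, a forebrain region for reward and movement, of 4 saline rats and 4 METH rats, with 1 library per rat. The labels give all rats as wild type (WT), and the study's methods describe male Sprague-Dawley rats, with no age given. Both groups were trained on food pellets, had a jugular catheter flushed with heparin and gentamycin, pressed a lever for infusions and were killed under ketamine and xylazine. They differed in the infusion, which was METH hydrochloride in saline or saline alone. The methods state that rats of both groups with stable lever pressing were picked for plasma sampling, and do not say whether the sequenced rats were these. Bulk tissue was used, so fewer cells of a type and less RNA per cell cannot be told apart.

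A miRNA precursor folds into a hairpin, and each side can release a mature strand, named 5p or 3p. The strand loaded into an Argonaute protein guides it to mRNAs that pair with the seed, bases 2 to 8, and these mRNAs are then repressed. The miR-181 family is abundant in brain and in lymphocytes, where it is known for tuning T cell receptor signaling. In cultured neurons, miR-181a is known to respond to dopamine and to repress an AMPA receptor subunit, which is why the family is of interest in the striatum after a psychostimulant.

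The mature sequences are shown because the seeds set which members can share targets and because near-identical members are hard to count apart. They are from RefSeq (GRCr8), read 5′ to 3′, with the seed in capitals.
rno-miR-181a-5p: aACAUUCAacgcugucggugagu
rno-miR-181b-5p: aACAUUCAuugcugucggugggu
rno-miR-181c-5p: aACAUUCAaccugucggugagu
rno-miR-181d-5p: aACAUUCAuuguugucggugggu
rno-miR-181a-1-3p: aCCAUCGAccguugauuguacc
rno-miR-181a-2-3p: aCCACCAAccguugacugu
rno-miR-181c-3p: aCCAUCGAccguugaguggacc

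The 4 5p members shared 1 seed, and no other row of the table with a RefSeq sequence had it. The 3p members had another seed in miR-181a-1-3p and miR-181c-3p, and a different one again in miR-181a-2-3p. With positions counted from 1 at the 5′ end, miR-181b-5p differed from miR-181a-5p by A9U, C10U and A21G. miR-181d-5p differed from miR-181b-5p by C12U alone. miR-181c-5p was identical to miR-181a-5p but for base 11, which it lacked. miR-181c-3p differed from miR-181a-1-3p by U16G and U19G. Reads could have been assigned to either of such near copies, so the separate counts of miR-181b-5p and miR-181d-5p are uncertain to that extent.

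RefSeq places the family at 6 loci on 3 chromosomes, in pairs that lie side by side on the plus strand. Mir181a-1 and Mir181b1 are neighbours on chromosome 13 within the lncRNA LOC108352541. Mir181a2 and Mir181b2 are neighbours on chromosome 3, where they overlap the protein-coding gene Nr6a1. Mir181c and Mir181d are neighbours on chromosome 19, next to Nanos3. The miR-181a-5p sequence has 2 entries, Mir181a-1 and Mir181a2, and the miR-181b-5p sequence is also held by the Mir181b2 hairpin. How reads that align to both loci were counted is not given in the sources used here, so the levels of these 2 members and the ratios built on them depend on a rule that is not known. For miR-181a, the 3p arms tell the loci apart. Mir3570 overlaps Mir181a-1 on the opposite strand, and its miRNA, rno-miR-3570, had 0 counts in the 8 libraries. In the smallest library, a floor of 3 counts is 0.232 CPM (counts scaled to a common library size). This floor uses the raw library total and takes no account of variation between rats.

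The Mir181c hairpin is shown because its arms gave the most uneven value among the members. The 5p strand and then the 3p strand are in capitals.
Mir181c: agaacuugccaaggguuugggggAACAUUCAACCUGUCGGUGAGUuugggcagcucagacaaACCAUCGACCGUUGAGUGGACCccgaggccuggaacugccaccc

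Libraries held 12929302 to 27632443 counts. METH rat 4 stood apart on the first principal component (42.0% of the variance), at -21.5 against -2.83 to 7.29 in the other rats. It was the highest rat for 30.4% of the 507 tested miRNAs and the lowest for 34.7%, so values are also given without it. Levels below are CPM on library sizes corrected by TMM (the trimmed mean of M-values), and differences are log2 fold changes of METH over saline. The members are 19 to 23 bases long, and no scaling by length was made.

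Across the table, the quasi-likelihood test of edgeR called 0 of 507 miRNAs (0%) at an adjusted p under 0.05. 28 miRNAs (5.52%) had an unadjusted p under 0.05. DESeq2 called 8, the exact test of edgeR 6 and its likelihood ratio test 7, and no member was among them. The 2 groups did not overlap in CPM for 16 miRNAs (3.16%), and 240 (47.3%) had a log2 fold change above 0. Of the 7 members, 0 were called, 0 had an unadjusted p under 0.05 and 0 had groups that did not overlap. 5 members had fold changes above 0 and 2 below, but miR-181b-5p turned negative when library totals set the scale, and under upper quartile scaling miR-181d-5p and miR-181c-3p turned positive. Their median log2 fold change was 0.30, against -0.02 over all tested miRNAs, whose median was -0.12 under library totals and 0.08 under upper quartile scaling. The members' median was 0.16 under library totals, 0.39 under upper quartile scaling, 0.14 by limma voom with sample quality weights, 0.15 without METH rat 4 and 0.12 without saline rat 4.

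The most abundant member was miR-181a-5p, the 4th most abundant miRNA of the table by mean count. Its level was 44427, 44292, 35068 and 33310 CPM in saline rats 1 to 4 and 33168, 36847, 49937 and 97128 CPM in METH rats 1 to 4. METH rat 4 held nearly all of the excess, and METH rats 1 and 2 lay within or just below the saline range. Saline rats averaged 39274 ± 5916 CPM and METH rats 54270 ± 29465 CPM (mean ± SD, n = 4 each). This gave a log2 fold change of 0.47 ± 0.35 (SE) with a 95% interval of -0.30 to 1.24 (edgeR quasi-likelihood test, adjusted p = 0.818). Without METH rat 4 it was 0.03, with library totals 0.25 and by limma voom with sample quality weights 0.14.

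miR-181b-5p, which shares the seed of miR-181a-5p, was the 19th most abundant miRNA. It was at 10120, 13712, 6851 and 6949 CPM in the saline rats and at 6416, 8925, 11246 and 14734 CPM in the METH rats. The groups overlapped over nearly their whole range, and only METH rat 4 exceeded the highest saline rat. The log2 fold change was 0.13 ± 0.32 (SE), with a 95% interval of -0.58 to 0.85 (edgeR, adjusted p = 0.978), and -0.08 without METH rat 4.

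miR-181c-5p was at 212, 313, 317 and 227 CPM in the saline rats and at 345, 288, 260 and 450 CPM in the METH rats. METH rats 1 and 4 lay above every saline rat, and METH rats 2 and 3 lay among them. The log2 fold change was 0.33 ± 0.25 (SE), with a 95% interval of -0.23 to 0.89 (edgeR, adjusted p = 0.818), and 0.17 without METH rat 4. It was 0.18 with library totals and 0.080 by limma voom with sample quality weights. miR-181d-5p, from the neighbouring locus, was at 159, 199, 145 and 114 CPM in the saline rats and at 120, 165, 127 and 174 CPM in the METH rats. All 4 METH rats lay inside the saline range. Its log2 fold change was -0.07 ± 0.25 (SE), with a 95% interval of -0.63 to 0.48 (edgeR, adjusted p = 0.978), and -0.15 without METH rat 4.

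**Figure D1:**
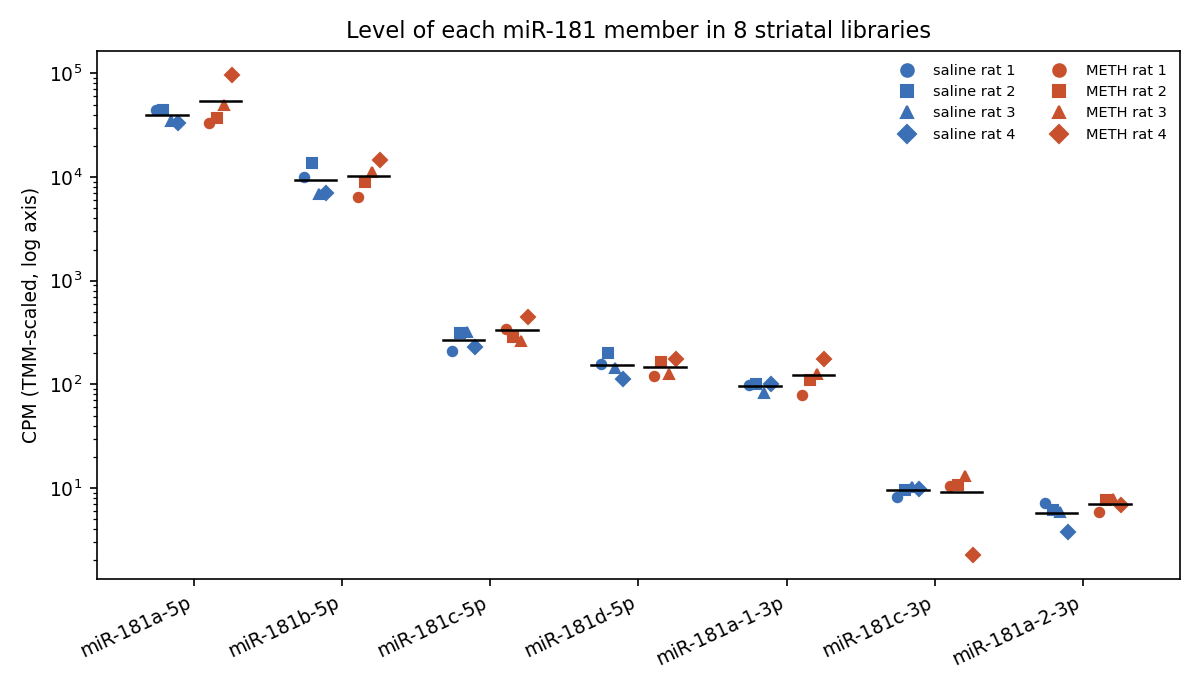
CPM of each of the 7 miR-181 members in each rat, on a log axis, with 4 saline and 4 METH rats per member and black lines at the group means. miR-181a-5p in METH rat 4 (97128 CPM) and miR-181c-3p in the same rat (2.28 CPM) lie farthest from the other rats of their group, in opposite directions.

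The 3p members were much rarer than their 5p partners. miR-181a-1-3p, which comes from the chromosome 13 locus, was at 97.8, 102, 82.4 and 99.9 CPM in the saline rats and at 78.6, 111, 126 and 176 CPM in the METH rats. METH rats 2 to 4 lay above every saline rat and METH rat 1 lay below them all. The log2 fold change was 0.37 ± 0.27 (SE), with a 95% interval of -0.23 to 0.97 (edgeR, adjusted p = 0.818), 0.15 without METH rat 4 and 0.19 with library totals.

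miR-181a-2-3p, from the chromosome 3 locus, had only 85 to 196 counts per library. It was at 7.13, 6.18, 5.87 and 3.79 CPM in the saline rats and at 5.84, 7.65, 7.91 and 6.84 CPM in the METH rats. METH rats 2 and 3 lay above the saline range. The log2 fold change was 0.30 ± 0.28 (SE), with a 95% interval of -0.31 to 0.91 (edgeR, adjusted p = 0.868), and 0.32 without METH rat 4. It was 0.12 without saline rat 4 (its lowest rat), 0.16 with library totals and 0.50 by limma voom with sample quality weights.

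miR-181c-3p was at 8.20, 9.65, 10.2 and 9.77 CPM in the saline rats and at 10.6, 10.8, 13.0 and 2.28 CPM in the METH rats. METH rats 1 to 3 lay above every saline rat, and METH rat 4 lay below every saline rat, with 38 counts against 154 to 321 in the other libraries. The log2 fold change was -0.05 ± 0.44 (SE), with a 95% interval of -1.03 to 0.94 (edgeR, adjusted p = 0.985). Without METH rat 4 it was 0.28 and did not pass the test either (edgeR, adjusted p = 0.998). Its spread within groups was an SD of 0.82 on the log2 scale, against a median of 0.35 over the members and of 0.47 over all tested miRNAs, and this included METH rat 4, while the other METH rats spanned 10.6 to 13.0 CPM and the saline rats 8.20 to 10.2 CPM.

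**Figure D2:**
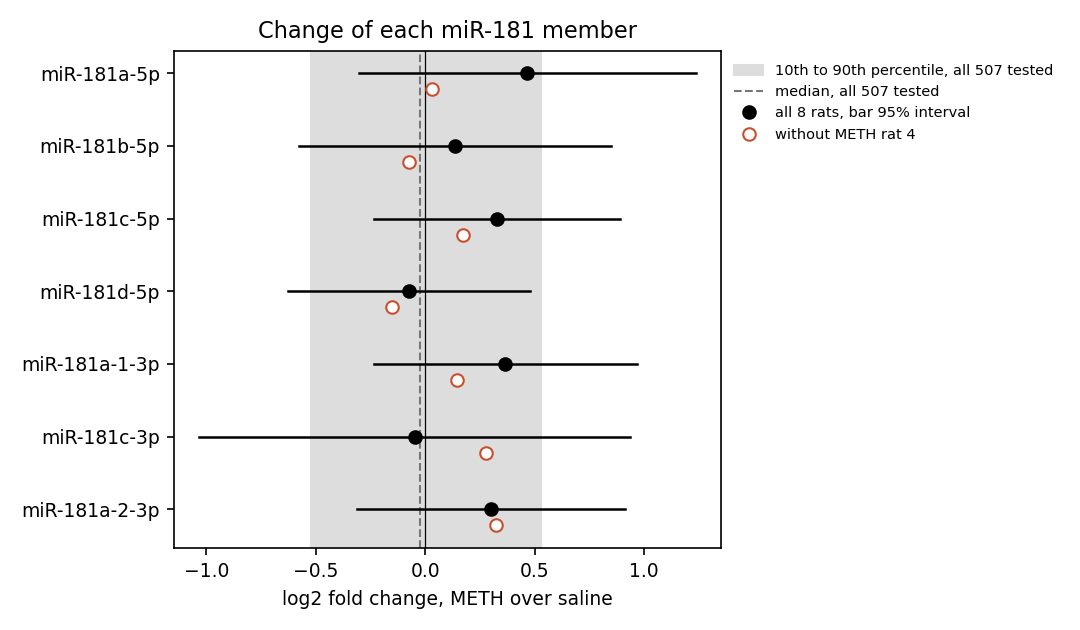
Log2 fold change of METH over saline for each member, with all 8 rats (filled points, 95% interval) and without METH rat 4 (open points, no interval drawn), beside the median and the 10th to 90th percentile of the 507 tested miRNAs. Every interval with all rats holds 0, and miR-181a-5p moves from 0.47 to 0.03 without METH rat 4.

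The members kept much the same order of level in every library. miR-181a-5p exceeded miR-181b-5p by 3.23 to 6.59 times, miR-181b-5p exceeded miR-181c-5p by 18.6 to 47.7 times, and miR-181c-5p exceeded miR-181d-5p by 1.34 to 2.88 times, each in 8 of 8 libraries. Next came miR-181a-1-3p, which lay below miR-181d-5p in 7 of 8 libraries, and their METH ranges overlapped. miR-181c-3p exceeded miR-181a-2-3p in 7 of 8 libraries, the exception being METH rat 4. miR-181b-5p exceeded miR-181d-5p, which differs from it by 1 base, by 47.2 to 88.6 times.

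Summed over the members, the family held 5.21 ± 1.33% of all counts in saline rats and 5.94 ± 1.90% in METH rats (mean ± SD, n = 4 each). The METH share was 5.04 ± 0.76% without METH rat 4, below that of the saline rats. The summed level was 49214 ± 8948 CPM in the saline group and 65222 ± 32907 CPM in the METH group, and 49405 ± 11105 CPM in the METH group without METH rat 4. miR-181a-5p made up 80.2 ± 3.17% of the members' counts in the saline group and 82.3 ± 2.90% in the METH group. The 3p members together made up 0.229 ± 0.0357% and 0.230 ± 0.0479%.

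Ratios between members within a library need no scaling between libraries, so they were used to look at whether members moved apart. They were taken as log2 of counts plus a pseudocount of 0.5 and tested by two-sided exact permutation of the rats (70 assignments, smallest p 0.0286). Over 8 ratios, p ranged from 0.143 to 1, and the adjusted p from 0.990 to 1. A ratio that alone reached the smallest possible p would not pass 0.05 after adjustment over the 8 ratios. The adjusted p thus cannot show whether a lone ratio moved apart. The ratio of miR-181d-5p to miR-181c-5p, members encoded side by side, had the smallest p. It averaged -0.80 ± 0.32 in saline rats and -1.18 ± 0.33 in METH rats (SD, n = 4 each, exact permutation test), a difference of -0.38 ± 0.23 (SE, exact permutation test, p = 0.143). The ratio of miR-181b-5p to miR-181a-5p differed by -0.21 ± 0.21 (SE, exact permutation test, p = 0.371), and that of miR-181d-5p to miR-181a-5p by -0.41 ± 0.30 (SE, exact permutation test, p = 0.314). These differences were -0.078 and -0.17 without METH rat 4, and that of miR-181b-5p to miR-181a-5p was -0.071 without saline rat 2.

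The arms of miR-181a were compared in the same way. The libraries held 331 to 551 counts of miR-181a-5p per count of miR-181a-1-3p, and 4817 to 14191 per count of miR-181a-2-3p. The 3p arm of the chromosome 13 locus exceeded that of the chromosome 3 locus by 13.5 to 26.4 times. The log2 ratio of miR-181a-1-3p to miR-181a-5p differed between groups by -0.03 ± 0.18 (SE), that of miR-181a-2-3p to miR-181a-5p by -0.02 ± 0.37, and that of miR-181a-2-3p to miR-181a-1-3p by 0.01 ± 0.30. These differences were 0.10 ± 0.15, 0.32 ± 0.17 and 0.22 ± 0.23 (SE) without METH rat 4, with p of 0.457, 0.171 and 0.600 by exact permutation. Without that rat, the smallest p that exact permutation can give is 0.0571. No ratio could then pass 0.05, so these p-values do not decide whether the arms moved apart.

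The arms of miR-181c, printed above, were uneven in 1 library. There were 25.9, 32.4, 30.9 and 23.3 counts of miR-181c-5p per count of miR-181c-3p in the saline rats and 32.6, 26.8, 20.1 and 197 in the METH rats. METH rat 4 thus had both the highest miR-181c-5p level and the lowest miR-181c-3p level of the 8 rats, and the other METH rats spanned the saline range. The log2 ratio of miR-181c-3p to miR-181c-5p averaged -4.80 ± 0.22 in saline rats and -5.42 ± 1.48 in METH rats (SD, n = 4 each, p = 0.657 by exact permutation). The difference of -0.62 became 0.10 without METH rat 4.

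The members were also compared with each other over the 8 libraries, as correlations of log2 CPM with exact permutation p-values adjusted over 9 pairs. miR-181a-5p and miR-181b-5p had a Pearson r of 0.82 (exact permutation p = 9.4e-04, adjusted p = 0.0085) and a Spearman rho of 0.90 (exact permutation p = 0.0046, adjusted p = 0.0411). Without the 2 libraries farthest from the median of miR-181a-5p, METH rats 3 and 4, r was 0.92. Without METH rat 4 alone, r was 0.89 and the adjusted p was 0.143 (exact permutation test), and with library totals as the scale r was 0.74 and the adjusted p was 0.132 (exact permutation test). Some miRNAs outside the family had a higher r with miR-181a-5p. Examples were miR-139-5p at 0.977, and miR-92a-3p at 0.969 without METH rat 4. An r of this size was thus not particular to the family.

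miR-181a-5p and miR-181a-1-3p had a Pearson r of 0.90 (exact permutation p = 0.0060, adjusted p = 0.0271) and a Spearman rho of 0.79 (exact permutation p = 0.0279, adjusted p = 0.126). Without METH rat 4, r was 0.69 and the adjusted p was 0.219 (exact permutation test). This relation rested on METH rats 3 and 4, the libraries farthest from the median, as r was 0.45 without them, and it did not pass with library totals as the scale (r = 0.81, exact permutation test, adjusted p = 0.114). The other 7 pairs had adjusted p-values of 0.133 to 0.471 for r. The arms miR-181c-5p and miR-181c-3p had a Pearson r of -0.64 (exact permutation p = 0.111, adjusted p = 0.251) and a Spearman rho of -0.12 (exact permutation p = 0.793, adjusted p = 0.977), and r was 0.37 without METH rat 4.

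**Figure D3:**
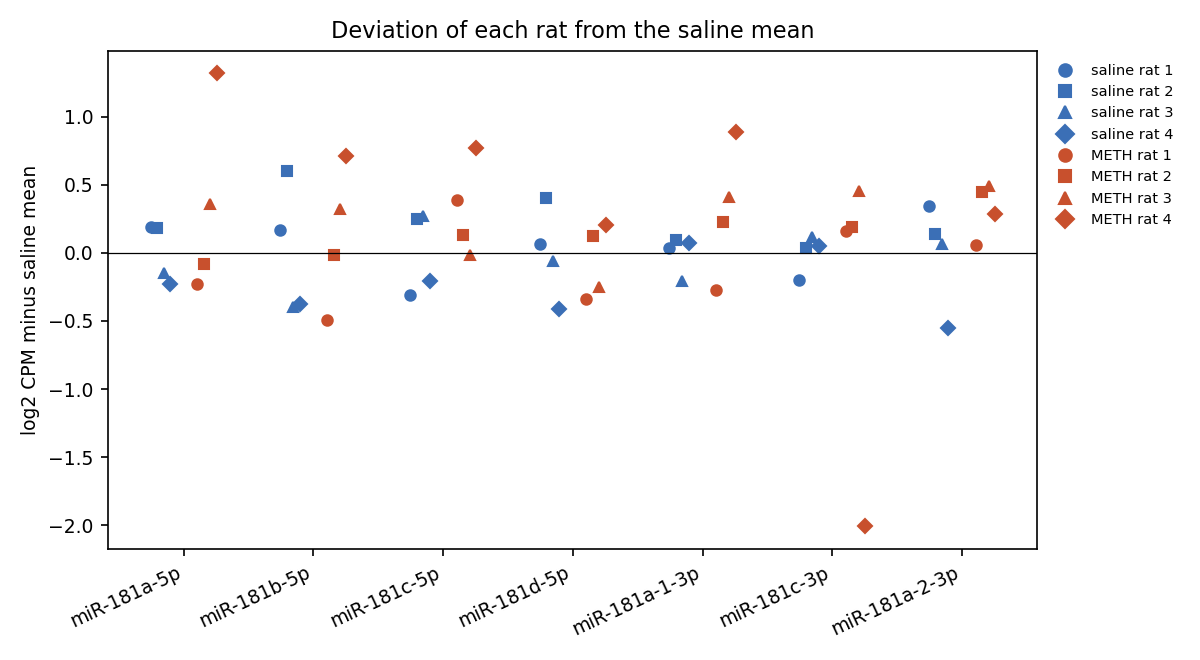
Deviation of each member's log2 CPM from its mean in the saline group for each rat. METH rat 4 is the highest rat for 4 of 7 members and the lowest for miR-181c-3p.

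METH rat 4 was the highest rat for 4 of the 7 members (miR-181a-5p, miR-181b-5p, miR-181c-5p and miR-181a-1-3p) and the lowest for miR-181c-3p. Marker miRNAs of other cell types also stood apart in its library. The summed level of 2 erythrocyte miRNAs was 2816 CPM in METH rat 4, against 402 to 643 CPM in the saline rats and 341 to 648 CPM in the other METH rats. The summed level of 3 choroid plexus miRNAs was 7105 CPM, against 2745 to 3546 and 2842 to 2876 CPM. That of 4 leukocyte miRNAs, markers of cells that also express miR-181a, was 688 CPM in METH rat 4, the lowest of the 8 rats, against 1076 to 2094 and 1243 to 2063 CPM. The summed level of 4 neuron miRNAs was 314016 CPM, within the saline range of 249548 to 451231 CPM. Among them, miR-124-3p was at 97750 CPM in METH rat 4, against 238668 ± 112226 CPM in saline rats (mean ± SD, n = 4). The sum therefore does not describe each neuron miRNA. The 3 oligodendrocyte miRNAs summed to 4492 CPM in METH rat 4, against 2897 to 3191 and 2334 to 4051 CPM, and the 2 endothelium miRNAs to 10700 CPM, against 8361 to 8814 and 8063 to 9578 CPM. Markers of a list did not always move together. The log2 fold changes of METH over saline were above 0 for 1 leukocyte miRNA and below 0 for 3. These counts were 2 and 2 for neuron, 1 and 2 for oligodendrocyte and 1 and 1 for endothelium miRNAs. They were 2 and 0 for erythrocyte and 3 and 0 for choroid plexus miRNAs. No matched marker was at 0 in any library and none was called, and the part of these cell types in the members' levels was not tested.

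The miRNAs whose log2 CPM most resembled that of miR-181a-5p over the 8 libraries, among 262 with a mean log2 CPM of at least 5, were miR-139-5p (Pearson r 0.977), miR-412-5p (0.966), miR-15b-5p (0.960), miR-100-5p (0.959) and miR-139-3p (0.955). Each was highest in METH rat 4. miR-139-5p, for example, was at 24280 CPM there and at no more than 9017 CPM in any other rat. Without METH rat 4 their r was 0.80 to 0.88, and 0 of the 5 stayed among the 5 most alike.

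Other miRNAs linked to psychostimulants or dopamine receptors were set beside the family. Of 7 listed, 6 were tested, and miR-504 was not analysed here. 0 of 6 were called and 0 had an unadjusted p under 0.05. 3 had fold changes above 0 and 3 below, of which miR-124-3p turned positive without METH rat 4. miR-212-3p, which belongs to an activity-regulated locus, averaged 2327 ± 362 CPM in saline rats and 2805 ± 151 CPM in METH rats (SD, n = 4 each), with a log2 fold change of 0.27 ± 0.19 (SE, edgeR, adjusted p = 0.818). miR-326-3p had a log2 fold change of -0.51 ± 0.29 (SE, edgeR, adjusted p = 0.818), and miR-495 one of -0.56 ± 0.37 (SE, edgeR, adjusted p = 0.818). These were -0.32 and -0.30 without METH rat 4, and that of miR-212-3p was 0.27. miR-124-3p, the neuronal miRNA, let-7d-5p and miR-132-3p had log2 fold changes of -0.13, 0.23 and 0.13, and of 0.11, 0.015 and 0.027 without METH rat 4.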

How the data were processed

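The authors gel-purified small RNA, built libraries whose kit tags molecules with unique identifiers, trimmed reads with Cutadapt 1.18, aligned them to rn6 with STAR 2.7.0e and obtained reads per mature miRNA from featureCounts (Subread 1.6.4), and the deposited values are these raw counts. Merging by identifier, the miRNA annotation release and the rule for reads with several alignments are not given in the sources used here, so PCR copies may be counted and intervals do not cover that.

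Counts of all 8 libraries were fitted with the edgeR 4.0.16 quasi-likelihood test in R 4.3.3 (TMM factors, filterByExpr minimum count 10, group as the only term). The Benjamini-Hochberg adjustment covered 507 miRNAs at a threshold of 0.05. Ratios and correlations were tested by exact permutation (scipy 1.17.1). The test was also run on simulated counts with large changes set in 200 miRNAs and no library set apart like METH rat 4. That run does not show how well changes as small as those of the members are detected. Named miRNAs were the members, the 5 most like miR-181a-5p, a list linked to psychostimulants, and any row with the same seed. Markers covered neuron, oligodendrocyte, leukocyte, erythrocyte, endothelium and choroid plexus. The members and lists were chosen with earlier results of these data known. Alternatives covered scaling, filters, tests (DESeq2 1.42.0, limma 3.58.1 voom with sample quality weights), a replicate block, depth and left-out libraries. A further alternative halved the counts of 35 rows that held only even counts in all libraries, of which 0 were members. RefSeq GRCr8 gave sequences and gene order only, since reads were aligned to rn6.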

Additional observations from a re-analysis of the deposited data

Results flagged for a closer look

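The level of rno-miR-181c-3p in METH rat 4 was 1.25 on the log2 CPM scale, against 3.42 to 3.71 in the other METH rats, and its gap to the nearest of them took up 0.882 of the range of the group. This value came from 38 counts. It was 1 of 32 groups of 4 rats examined, of which chance alone would give about 1.6 such values. In the same library, miR-181c-5p, from the other arm of the hairpin, was at its highest of the 8 rats.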

How the results depend on the processing

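The 0 calls over all miRNAs became 8 with DESeq2, 6 with the edgeR exact test and 7 with its likelihood ratio test, and 0 to 5 when single libraries were left out, where 5 came without METH rat 1. The 28 miRNAs at an unadjusted p under 0.05 became 16 under a filter of 10 or more counts in each library, 58 with limma voom with sample quality weights, and 25 to 54 when libraries were left out, where 54 came without METH rat 1. The members were not called under any of these 20 settings, and their lowest adjusted p was 0.418 (limma voom with sample quality weights, miR-181a-2-3p). Of 140 member fold changes under the alternatives, 129 kept their direction and 11 reversed. The exact and likelihood ratio tests of edgeR gave nearly the same fold changes as the main fit, so those settings could hardly reverse them. miR-181b-5p was -0.068 with library totals and -0.076 to 0.40 over left-out libraries. miR-181d-5p was 0.042 with upper quartile factors, 0.028 with weighted voom and -0.22 to 0.10 over left-out libraries. miR-181c-3p was 0.037, 0.14 and -0.27 to 0.28 under the same settings. miR-181a-5p was 0.030 to 0.64 and miR-181a-2-3p 0.12 to 0.46 over left-out libraries. With the even-only counts halved, miR-181a-5p was 0.40. The replicate block and the halved even-only counts leave the ratio differences unchanged, so those settings could not reverse them. Of 88 ratios, 13 reversed, all when a library was left out. Those ranges were -0.14 to 0.10 for miR-181a-1-3p to miR-181a-5p, -0.20 to 0.32 for miR-181a-2-3p to miR-181a-5p, -0.99 to 0.10 for miR-181c-3p to miR-181c-5p, -0.24 to 0.15 for miR-181c-5p to miR-181a-5p, and -0.20 to 0.22 for miR-181a-2-3p to miR-181a-1-3p. The ratios that kept their direction ranged from -0.30 to -0.071 for miR-181b-5p to miR-181a-5p, -0.61 to -0.17 for miR-181d-5p to miR-181a-5p and -0.51 to -0.26 for miR-181d-5p to miR-181c-5p. Without METH rat 4, r was -0.32 for miR-181a-5p and miR-181c-5p, -0.17 for miR-181b-5p and miR-181c-5p, and 0.37 for the miR-181c arms. Of the 5 miRNAs most like miR-181a-5p, 0 stayed without METH rat 4 and 3 with library totals. The cause was not tested.

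The rat numbers are shared by the groups only as numbers. The deviations of same-numbered rats correlated at -0.34, -0.15, -0.15 and -0.36, and no rat correlated best with its own number. With the rat number as a replicate block, 0 miRNAs were called, 23 had an unadjusted p under 0.05, and miR-181a-5p was at 0.33 and miR-181c-3p at -0.25. By depth, miR-181a-2-3p rested on 85 to 196 counts per library and miR-181c-3p on 38 to 321.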
